A study of Mus musculus with 18 samples.

Results

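The 10 genes described here were the transcription factor gene Nfe2l2, which encodes NRF2, its inhibitor gene Keap1, and 8 genes of the antioxidant and glutathione response that NRF2 is known to drive (Nqo1, Hmox1, Gclc, Gclm, Srxn1, Txnrd1, G6pdx and Gsr). They were matched by gene symbol, ignoring case, and all 10 were found among the 24455 genes counted in 168FARN cells and the 24532 counted in LLC1 cells. All 10 also passed the filter on low counts in both lines. In 168FARN cells grown with WT fibroblasts, 7 of the 10 genes differed from cells grown alone, beside 64.1% of all genes tested. Hmox1 was higher and Gclc, Gclm, G6pdx, Srxn1, Gsr and Keap1 were lower. With sgPrrx1 fibroblasts these 6 genes were higher than with WT fibroblasts, by 0.10 to 0.44 on the log2 scale, and Hmox1 and Nfe2l2 were lower, beside 26.9% of all genes higher and 33.1% lower.

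NRF2 is held at a low level in unstressed cells by KEAP1, which hands it to a CUL3 ubiquitin ligase for destruction. Oxidants and electrophiles modify KEAP1, so that NRF2 escapes, enters the nucleus, pairs with small MAF proteins and binds antioxidant response elements in its target genes. Much of this control acts on the protein, so the mRNA of Nfe2l2 is not a measure of NRF2 activity. The targets supply glutathione, recycle it and thioredoxin with NADPH, and break down haem and quinones. In many tumours the pathway is kept on by mutation and helps cancer cells survive oxidants and drugs.

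Cancer cells of 2 mouse lines were cultured for a week as spheroids from hanging drops and their RNA was sequenced, with 3 libraries in each of 6 groups and 18 in all. 168FARN, a breast cancer line, was grown alone, with CAFs that came from the breast tumours of the MMTV-PyMT mouse model and carried a control guide RNA (WT), or with the same kind of CAFs after deletion of Prrx1 by CRISPR/Cas9 (sgPrrx1). LLC1, a Lewis lung carcinoma line, was grown alone or with WT or sgPrrx1 wound healing fibroblasts, which came from dorsal skin at day 10 after wounding. Cocultures held 3 fibroblasts per cancer cell. The cancer cells of every group carried GFP and, by the methods given, were sorted from the fibroblasts on it. Each cancer was represented by a single line, and the line, the source of its fibroblasts and its count table changed together, so these cannot be told apart. Prrx1 was deleted in the fibroblasts only, so its level in cancer cell libraries does not check the labels. The labels do not say whether replicates were separate cultures, and p-values then measure only the spread between these libraries.

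The sequences below are shown because they place matches to the core of the element that NRF2 reads beside the genes whose counts follow. Binding of NRF2 at these matches was not tested. The core of the antioxidant response element, TGACNNNGC, was searched on both strands of RefSeq promoter windows of GRCm38.p6, which run from 250 bases before to 50 bases after the first transcribed base. RefSeq windows were matched for 7 of the 10 genes (9 windows), and 5 genes held 1 match each, in Nfe2l2, Gclm, Srxn1, G6pdx and 1 of the 3 windows of Txnrd1. Among all 32851 windows of this length, 12.4% held a match. No match was found in the windows of Keap1 and Nqo1, and Hmox1, Gclc and Gsr were not matched. Capitals mark the core, which reads as GCNNNGTCA where it lies on the other strand, and none of the 5 cores held the AP-1 sequence TGACTCA. The first 4 lines give the 250 bases before the first transcribed base of the window. For Gclm and Txnrd1 this start lies inside the span of the gene given below. The line for Srxn1, whose match lay after the start, gives 30 bases around the match.
Nfe2l2, chr2:75704664-75704913, minus strand: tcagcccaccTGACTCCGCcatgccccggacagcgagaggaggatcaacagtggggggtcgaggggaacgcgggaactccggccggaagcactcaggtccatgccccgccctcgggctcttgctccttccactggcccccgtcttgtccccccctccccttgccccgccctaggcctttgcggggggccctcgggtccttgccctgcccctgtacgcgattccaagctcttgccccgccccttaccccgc
Gclm, chr3:122245307-122245556, plus strand: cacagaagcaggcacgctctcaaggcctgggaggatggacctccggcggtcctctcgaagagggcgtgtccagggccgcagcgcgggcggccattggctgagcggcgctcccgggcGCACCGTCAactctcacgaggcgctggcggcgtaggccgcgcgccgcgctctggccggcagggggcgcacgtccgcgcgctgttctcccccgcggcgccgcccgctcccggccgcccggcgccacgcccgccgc
Txnrd1, chr10:82858956-82859205, plus strand: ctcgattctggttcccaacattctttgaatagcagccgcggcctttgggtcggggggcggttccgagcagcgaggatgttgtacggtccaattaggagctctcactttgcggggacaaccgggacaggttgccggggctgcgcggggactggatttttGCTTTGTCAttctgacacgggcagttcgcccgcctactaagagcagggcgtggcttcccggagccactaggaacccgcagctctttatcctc
G6pdx, chrX:74428881-74429130, minus strand: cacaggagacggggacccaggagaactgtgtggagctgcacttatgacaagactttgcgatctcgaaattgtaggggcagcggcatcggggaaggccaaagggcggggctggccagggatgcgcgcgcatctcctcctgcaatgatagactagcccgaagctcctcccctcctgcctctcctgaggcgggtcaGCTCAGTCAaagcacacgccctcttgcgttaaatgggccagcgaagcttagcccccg
Srxn1, chr2:152105542-152105571, plus strand: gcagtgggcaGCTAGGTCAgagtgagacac

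Total counts ran from 48315037 to 68933002 per library in 168FARN and from 66129117 to 103997557 in LLC1. The LLC1 library of sgPrrx1 replicate 3 stood apart from the other LLC1 libraries. Its quality weight in limma voom was 0.0247, against 0.421 to 3.36 for the other 8, and its difference from the mean of the other sgPrrx1 libraries had a Spearman correlation of -0.654 with transcript length and 0.53 with GC content across 12873 genes, of which 86.8% had a length. Results for LLC1 are therefore given with and without it. Of the epithelial markers, Krt8 was the only one of 6 above 1 CPM in 168FARN (331 ± 12.5 CPM in cells alone, SD, n = 3), Epcam was at 0 in cells alone, and none was above 1 CPM in LLC1, so the counts of defining epithelial markers do not bear out either carcinoma label beyond Krt8. In bulk libraries, fewer cells of a type and less RNA per cell cannot be told apart.

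**Figure D1:**
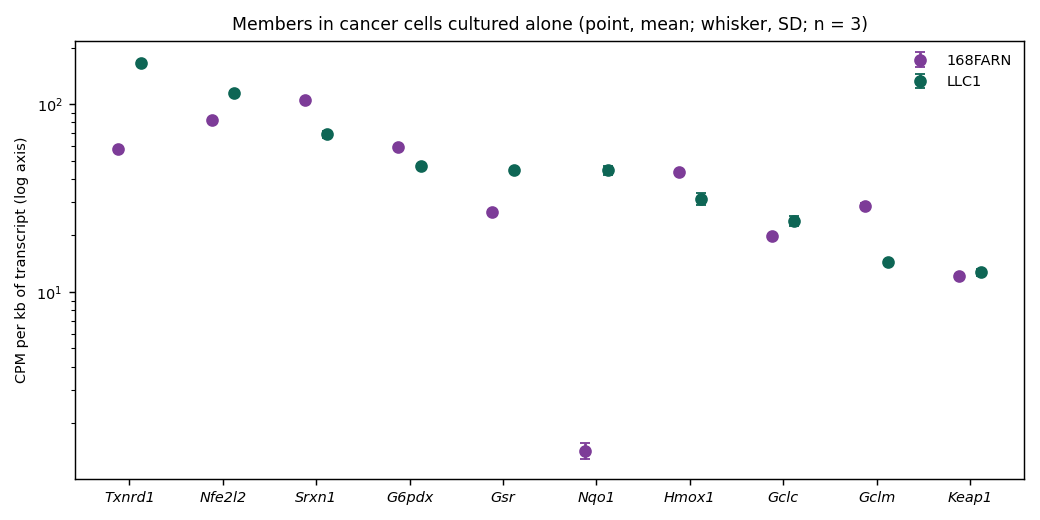
Levels of the 10 genes in 168FARN and LLC1 cells cultured alone, as CPM per kb of the longest annotated transcript, on a log axis. Points are means and whiskers SD of 3 libraries. Nqo1 stands at 1.43 in 168FARN and 44.4 in LLC1, and Keap1 at 12.2 and 12.7.

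The levels of the pathway in cells alone differed between the lines before any fibroblast was added. Per kb of transcript, Txnrd1 (thioredoxin reductase 1, chr10:82833951-82897724), which recycles thioredoxin with NADPH, was the highest of the 10 in LLC1, at 166 ± 4.52 CPM per kb (SD, n = 3), where CPM is the count scaled to a common library size. Nfe2l2 (chr2:75675513-75704663) followed at 115 ± 2.34 and Srxn1 at 69.2 ± 2.85. In 168FARN the order began with Srxn1 (sulfiredoxin 1, chr2:152105524-152111376), which restores overoxidised peroxiredoxins, at 105 ± 0.992 CPM per kb, with Nfe2l2 at 82.7 ± 1.02, and G6pdx at 59.0 ± 1.07 and Txnrd1 at 57.7 ± 1.04 had SD ranges that overlapped. The lowest gene in LLC1 was Keap1 (chr9:21229730-21239332) at 12.7 ± 0.485, followed by Gclm at 14.4 ± 0.369. In 168FARN it was Nqo1, at 1.43 ± 0.138. Nqo1 (NAD(P)H quinone dehydrogenase 1, chr8:107388225-107403205), the enzyme most often used as a readout of NRF2, had 102, 135 and 120 counts in the 168FARN libraries of cells alone and 5285, 5518 and 5693 in those of LLC1.

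Of the 10 genes, 9 differed between 168FARN and LLC1 cells alone in edgeR's quasi-likelihood test with Benjamini-Hochberg adjustment over 14369 genes. Among all these genes 37.7% were higher and 33.2% lower in 168FARN, so calls at this rate are common between the tables. Nqo1 was lower in 168FARN by a log2 difference of -5.06 (SE 0.153, adjusted p = 4.51e-13), and Txnrd1 by -1.63 (SE 0.101). Gsr (glutathione reductase, chr8:33653238-33698162), which returns oxidised glutathione to its reduced form, was lower by -0.85, Nfe2l2 by -0.58 and Gclc by -0.37. Gclm, the modifier subunit of glutamate-cysteine ligase (chr3:122245487-122267215), was higher in 168FARN by 0.90 (SE 0.0525), Srxn1 by 0.49, Hmox1 by 0.36 and G6pdx by 0.23. Keap1 was not called, at -0.17 (SE 0.092, adjusted p = 0.111). Leaving out 1 library gave 7 to 10 members, beside 65.7% to 81.6% of all genes. The calls of Gclc (adjusted p = 0.0418) and G6pdx (adjusted p = 0.0415) were lost without any 1 of the libraries of cells alone and without several of the others, with adjusted p up to 0.109 and 0.107. Without LLC1 sgPrrx1 replicate 3 all 10 were called, beside 81.6% of 14644 genes, Gclc with adjusted p = 2.42e-07 and G6pdx with 8.68e-06.

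**Figure D2:**
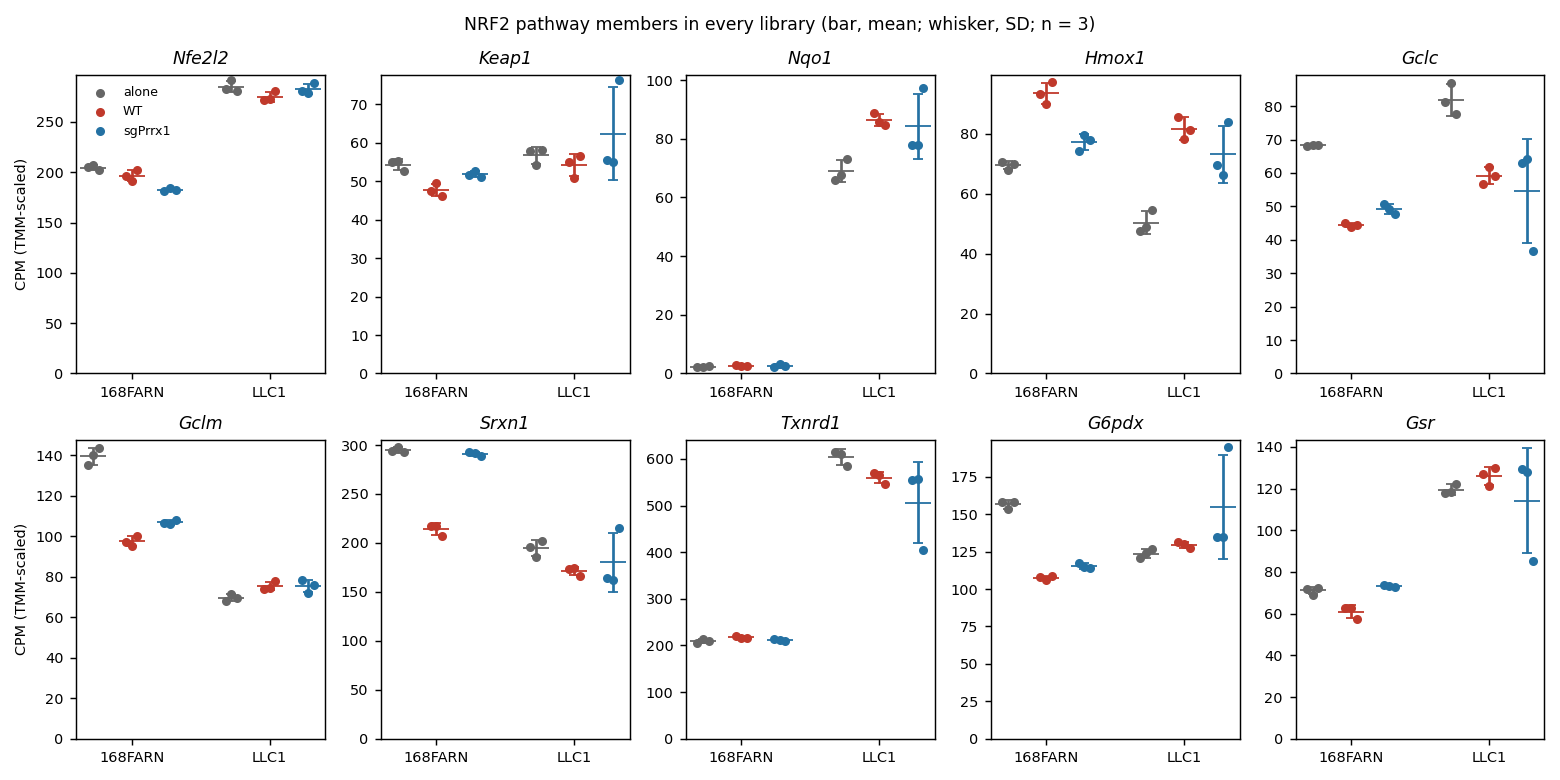
CPM (read counts scaled to a common library size, here with TMM factors) of the 10 genes in every library of cells alone, WT coculture and sgPrrx1 coculture. Points are libraries, bars means and whiskers SD (n = 3). In 168FARN the WT points of Gclc, Gclm, G6pdx and Srxn1 lie below all points of cells alone, and in LLC1 one sgPrrx1 point lies apart for Keap1, Gclc, Srxn1, Txnrd1, G6pdx and Gsr.

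In 168FARN, both subunits of the enzyme that starts glutathione synthesis were lower with WT CAFs than in cells alone. Gclc, the catalytic subunit of glutamate-cysteine ligase (chr9:77754535-77794489), had 68.2, 68.3 and 68.4 CPM in cells alone, 45.1, 43.8 and 44.6 with WT CAFs, and 50.6, 49.1 and 47.6 with sgPrrx1 CAFs. The 3 groups did not overlap, and sgPrrx1 lay between the others and nearer to WT. Gclc fell by 0.62 on the log2 scale with WT CAFs (SE 0.0287, adjusted p = 1.47e-08 in edgeR's quasi-likelihood test) and was 0.14 higher with sgPrrx1 than with WT (SE 0.0288, adjusted p = 0.00139). Gclm had 135, 140 and 144 CPM in cells alone, 97.0, 95.4 and 100.3 with WT and 106, 106 and 108 with sgPrrx1 CAFs. The order of the groups was that of Gclc, again with no overlap. Gclm fell by 0.52 with WT (SE 0.032, adjusted p = 1.27e-07), and the difference of sgPrrx1 from WT was 0.13 (SE 0.032, adjusted p = 0.00434).

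G6pdx and Gsr keep NADPH and reduced glutathione in supply. G6pdx (glucose-6-phosphate dehydrogenase, chrX:74409483-74428880), the first enzyme of the pentose phosphate pathway, had 158, 153 and 158 CPM in cells alone, 108, 106 and 109 with WT CAFs and 117, 115 and 114 with sgPrrx1 CAFs. All 6 coculture libraries lay below all 3 of cells alone. G6pdx fell by 0.54 with WT (SE 0.0286, adjusted p = 3.86e-08) and by 0.44 with sgPrrx1 (SE 0.0286, adjusted p = 3.41e-07), and sgPrrx1 exceeded WT by 0.10 (SE 0.0286, adjusted p = 0.00982). Its near copy G6pd2 had at most 2 counts in any library. Gsr had 72.0, 69.2 and 72.4 CPM in cells alone, 62.9, 62.9 and 57.3 with WT and 73.6, 73.2 and 73.0 with sgPrrx1 CAFs. The WT libraries were the lowest 3 of the 9. Gsr fell by 0.22 with WT (SE 0.0386, adjusted p = 0.000428), was 0.26 higher with sgPrrx1 than with WT (SE 0.0386, adjusted p = 0.000141), and differed from cells alone by 0.04 with sgPrrx1 (SE 0.0385, adjusted p = 0.4).

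Of the peroxiredoxin and thioredoxin enzymes, Srxn1 moved and Txnrd1 was not called. Srxn1 had 294, 298 and 293 CPM in cells alone, 218, 217 and 207 with WT CAFs and 293, 292 and 289 with sgPrrx1 CAFs. The WT libraries lay below the other 6, which overlapped each other. Srxn1 fell by 0.46 with WT (SE 0.0268, adjusted p = 7.68e-08) and was 0.44 higher with sgPrrx1 than with WT (SE 0.0268, adjusted p = 1.71e-07), while sgPrrx1 and cells alone differed by -0.02 (SE 0.0268, adjusted p = 0.598). Txnrd1 had 206, 214 and 210 CPM in cells alone, 220, 215 and 216 with WT and 214, 211 and 209 with sgPrrx1 CAFs. Its log2 differences were 0.05 for WT against alone (SE 0.0258, adjusted p = 0.115) and -0.04 for sgPrrx1 against WT (SE 0.0258, adjusted p = 0.22).

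Hmox1 was the one member that rose. Hmox1 (haem oxygenase 1, chr8:75093618-75100593), which cleaves haem to biliverdin, iron and carbon monoxide and also answers to the repressor BACH1, had 70.7, 68.0 and 69.9 CPM in cells alone, 93.1, 90.1 and 97.2 with WT CAFs and 74.4, 79.6 and 77.7 with sgPrrx1 CAFs. The groups did not overlap, and sgPrrx1 lay between the others. Hmox1 rose by 0.43 with WT (SE 0.0366, 1.34-fold, adjusted p = 1.68e-06) and by 0.15 with sgPrrx1 (SE 0.0367, adjusted p = 0.0053), and it was lower by -0.27 with sgPrrx1 than with WT (SE 0.0365, adjusted p = 6.66e-05).

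The genes of the regulator and its inhibitor changed little. Nfe2l2 had 205, 207 and 202 CPM in cells alone, 196, 191 and 203 with WT CAFs and 182, 184 and 182 with sgPrrx1 CAFs. The sgPrrx1 libraries were the lowest 3, and the WT and alone libraries overlapped. Nfe2l2 was lower with sgPrrx1 by -0.17 against cells alone (SE 0.0285, adjusted p = 0.00063) and by -0.11 against WT (SE 0.0285, adjusted p = 0.00671), and the difference of WT from alone was -0.06 (SE 0.0285, adjusted p = 0.101). Keap1 had 55.0, 55.3 and 52.8 CPM in cells alone, 47.5, 49.5 and 46.2 with WT and 51.5, 52.6 and 51.2 with sgPrrx1 CAFs. The 3 groups did not overlap, with WT lowest. Keap1 fell by 0.19 with WT (SE 0.0323, adjusted p = 0.000397) and was 0.12 higher with sgPrrx1 than with WT (SE 0.0323, adjusted p = 0.00869). Nqo1, at 2.10 to 2.47 CPM in cells alone, 2.41 to 2.86 with WT and 2.06 to 3.28 with sgPrrx1 CAFs, was not called in any comparison, and its SE of 0.171 to 0.176 was the widest of the 10.

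These counts stand against frequent calls over all genes of 168FARN. For WT CAFs against cells alone, 1 member was higher and 6 lower, where 33.4% of the 13540 genes tested were higher and 30.7% lower. The 3 members that fell by more than 0.5, Gclc, Gclm and G6pdx, compare with 8.86% of genes lower by that much. For sgPrrx1 against cells alone, 1 member was higher and 4 lower (Gclc, G6pdx, Gclm and Nfe2l2), against 25.7% and 24.1% of genes. For sgPrrx1 against WT, 6 members were higher and 2 lower, against 26.9% and 33.1%. The median log2 difference of the members was -0.20 for WT against alone, beside 0.01 over all genes, and 0.11 for sgPrrx1 against WT, beside -0.03. The WT libraries enter both of these comparisons and the libraries of cells alone enter 2, so the comparisons are not independent. With no scaling beyond library totals, the differences of sgPrrx1 from WT in Keap1, Gclm and G6pdx no longer passed the threshold (adjusted p = 0.0873, 0.0572 and 0.175), and with only the WT and sgPrrx1 groups in the fit, that of Nfe2l2 did not (adjusted p = 0.0553).

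**Figure D3:**
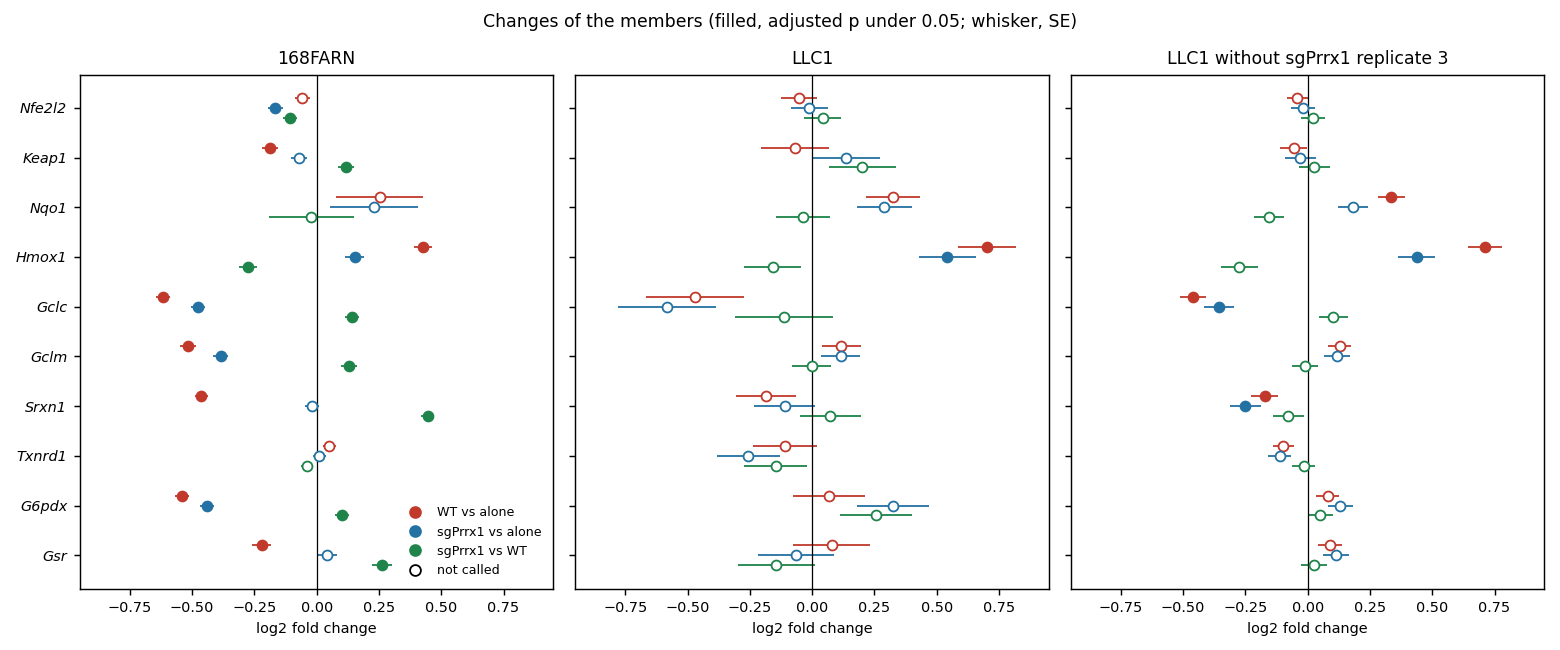
Log2 fold changes of the 10 genes in 168FARN, in LLC1, and in LLC1 without sgPrrx1 replicate 3. Points are estimates of edgeR, whiskers SE, and filled points passed an adjusted p of 0.05. In 168FARN, 7, 5 and 8 points are filled for WT against alone, sgPrrx1 against alone and sgPrrx1 against WT, and in LLC1 Hmox1 has the only filled points, 1 each for WT and sgPrrx1 against alone.

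The summed markers of fibroblasts moved with the same groups, while single markers did not all do so. The summed level of 12 fibroblast markers was 133 to 137 CPM in 168FARN cells alone, 809 to 878 with WT CAFs and 233 to 242 with sgPrrx1 CAFs, and 5, 8 and 7 of the 12 were above 1 CPM. Col3a1, the collagen gene with the highest level among them in WT coculture, reached 239 ± 18.3 CPM there (SD, n = 3), beside 8.2 ± 1.12 in cells alone, and Fap was at 0 with WT CAFs. Pdgfrb was at 43 ± 1.18 CPM in cells alone, 40.6 ± 1.24 with WT and 26.7 ± 1.01 with sgPrrx1 CAFs. Mfap5 was at 10.6, 12.9 and 13.6 CPM, highest with sgPrrx1. The summed level of 6 macrophage markers was 84.7 to 90.7, 74.2 to 75.3 and 99.2 to 103 CPM in the 3 groups, with Ptprc at 0 in all. The 4 endothelial markers summed to 0.637 to 0.748, 5.88 to 7.06 and 4.13 to 4.72 CPM, led by Cdh5. Transcript length moved with the comparisons too, with a Spearman correlation to the log2 fold change of 0.246 for WT against alone and -0.333 for sgPrrx1 against WT over the 87.5% of 13540 genes that had a length. The part of any of these in the members' changes was not tested.

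In LLC1, Hmox1 was the only member called when all 9 libraries were fitted. It had 47.4, 48.9 and 54.5 CPM in cells alone, 85.7, 78.3 and 81.2 with WT wound healing fibroblasts and 69.5, 66.1 and 84.0 with sgPrrx1 fibroblasts. All coculture libraries exceeded all libraries of cells alone, and the cocultures overlapped each other. Hmox1 rose by 0.70 with WT (SE 0.115, 1.63-fold, adjusted p = 0.0109) and by 0.54 with sgPrrx1 (SE 0.115, adjusted p = 0.0411). Over all 12873 genes tested, 4.25% were higher and 4.58% lower with WT, and 2.01% higher and 2.31% lower with sgPrrx1. Leaving out 1 library kept the log2 differences at 0.66 to 0.79 with WT and 0.44 to 0.61 with sgPrrx1, but each call was lost without some of the libraries. With WT, the adjusted p was 0.0658 without alone replicate 1, 0.0639 without alone replicate 2, 0.0594 without WT replicate 1 and 0.0518 without WT replicate 3. With sgPrrx1, leaving out any LLC1 library other than sgPrrx1 replicate 3 gave an adjusted p of 0.064 to 0.184.

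Without sgPrrx1 replicate 3, the spread in LLC1 narrowed and 4 members passed the threshold for WT against alone, where 22.0% of 13088 genes were higher and 22.2% lower. Nqo1 had 66.0, 67.8 and 73.1 CPM in cells alone and 88.7, 85.7 and 84.7 with WT fibroblasts, with no overlap. It was higher by 0.34 in this fit (SE 0.0536, adjusted p = 0.00147), and the fit of all libraries gave 0.33 (SE 0.109, adjusted p = 0.107). Gclc had 81.4, 87.0 and 77.5 CPM in cells alone and 56.6, 61.7 and 59.1 with WT, also with no overlap. It was lower by -0.46 (SE 0.0521, adjusted p = 0.000299), against -0.47 (SE 0.196, adjusted p = 0.185) with all libraries. Srxn1 had 196, 186 and 202 CPM in cells alone and 174, 174 and 166 with WT, and was lower by -0.17 (SE 0.0548, adjusted p = 0.0316), where all libraries gave -0.18 (adjusted p = 0.407). Hmox1 was higher by 0.71 (SE 0.0675, adjusted p = 0.000138).

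For sgPrrx1 against alone without that library, Hmox1 was higher by 0.44 (SE 0.0745, adjusted p = 0.00392), Gclc lower by -0.36 (SE 0.0586, adjusted p = 0.00337) and Srxn1 lower by -0.25 (SE 0.0616, adjusted p = 0.0183), where 12.5% of genes were higher and 14.2% lower. These 3 had 63.1 and 64.3 CPM for Gclc, 164 and 162 for Srxn1, and 69.5 and 66.1 for Hmox1 in the 2 sgPrrx1 libraries kept. No member was called between sgPrrx1 and WT, with or without the library, in edgeR. Over all genes 0% were higher and 0.0544% lower with it, and 2.94% higher and 2.75% lower without it. At an unadjusted p under 0.05 there were 0 members with the library and 2 without it, Hmox1 at -0.27 (SE 0.0754, adjusted p = 0.0628) and Nqo1 at -0.15 (SE 0.06, adjusted p = 0.131). DESeq2 with all libraries called 0, beside 3.89% of all genes in either direction. Limma voom with quality weights called the same 2, Hmox1 and Nqo1, beside 36.4% of all genes.

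The library that stood apart lay outside the range of its replicates by a wide margin in 8 of the 10 members. Its CPM was 36.7 for Gclc against 63.1 and 64.3 in the other sgPrrx1 libraries, 406 against 555 and 557 for Txnrd1, and 85.2 against 130 and 128 for Gsr. It was 195 against 135 and 135 for G6pdx, 76.3 against 55.6 and 55.1 for Keap1, and 215 against 164 and 162 for Srxn1. Nqo1, at 97.1 against 77.9 and 77.8, and Hmox1, at 84.0 against 69.5 and 66.1, were also high in it. For Nfe2l2 (289 against 281 and 279) and Gclm (75.7 against 78.2 and 72.2) it lay near them. What set this library apart was not tested.

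The other members of LLC1 were not called in either fit. Nfe2l2 had 283, 292 and 281 CPM in cells alone, 272, 272 and 281 with WT and 281, 279 and 289 with sgPrrx1 fibroblasts, with overlap between all groups. Gclm had 68.0, 71.5 and 69.4 CPM in cells alone, 74.0, 74.6 and 77.9 with WT and 78.2, 72.2 and 75.7 with sgPrrx1. Its coculture libraries all lay above those of cells alone, yet the difference of WT from alone was 0.12 (SE 0.0791, adjusted p = 0.424) with all libraries and 0.13 (SE 0.0469, adjusted p = 0.0536) without sgPrrx1 replicate 3. Txnrd1 had 615, 612 and 585 CPM in cells alone and 569, 565 and 546 with WT, G6pdx 121, 124 and 127 against 131, 130 and 127, Gsr 118, 118 and 122 against 127, 121 and 130, and Keap1 58.0, 54.3 and 58.0 against 55.0, 50.9 and 56.6, none of them called. Of the 12 fibroblast markers, Col3a1 at 1580 CPM made up most of the sum in LLC1 cells alone, and the sums were 1650 to 1730 CPM in cells alone, 1200 to 1220 with WT and 1520 to 1590 with sgPrrx1 fibroblasts. The sum followed Col3a1, which was at 1080 CPM with WT, while Dcn, a fibroblast proteoglycan gene, was at 2.85 CPM in cells alone, 30.1 with WT and 21.4 with sgPrrx1. Col1a1 was at 0.375, 8.6 and 0.681 CPM and Col1a2 at 0.0296, 8.68 and 0.264, and 6, 8 and 6 of the 12 were above 1 CPM. Other markers had lower means in both cocultures, with Pdgfrb at 5.59, 2.38 and 3.01 CPM and Lum at 2.88, 1.74 and 2.45. Pdgfra was at 78.3 ± 8.94, 69.3 ± 3.72 and 68.8 ± 21.8 CPM (SD, n = 3). Its counts with sgPrrx1 ran from 2545 to 8636, so its direction there cannot be read from the mean. The 6 macrophage markers summed to 26.8 to 29.2, 49.5 to 52.9 and 53 to 90.4 CPM, led by Cd68, with Adgre1 at 0. The highest value was that of sgPrrx1 replicate 3, and sgPrrx1 replicates 1 and 2 had 54.88 and 53.04. Transcript length moved with the comparisons in LLC1 as well, with a Spearman correlation to the log2 fold change of -0.281 for WT against alone, -0.412 for sgPrrx1 against alone and -0.232 for sgPrrx1 against WT, and of -0.273, 0.0273 and 0.478 without sgPrrx1 replicate 3. GC content had correlations of -0.204, 0.264 and 0.656, and of -0.202, -0.11 and 0.18 without it. The part of any of these in the members' values was not tested.

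The response of the same gene was compared between the lines as an interaction in a joint fit of 18 libraries and 14369 genes, where a negative value means a lower change in 168FARN. For WT against alone, Gclm differed by -0.64 (SE 0.0738, adjusted p = 1.25e-05) and G6pdx by -0.61 (SE 0.136, adjusted p = 0.0032), and 29.4% of all genes differed. Gclm fell in 168FARN and was not called in LLC1, where it stood slightly above cells alone. For sgPrrx1 against alone, G6pdx differed by -0.74 (SE 0.136, adjusted p = 0.00185), Gclm by -0.48 (SE 0.0738, adjusted p = 0.000405) and Hmox1 by -0.37 (SE 0.111, adjusted p = 0.0424), and 12.1% of all genes differed. For sgPrrx1 against WT, Srxn1 differed by 0.39 (SE 0.114, adjusted p = 0.0241), and 19.3% of all genes differed. The differences of Hmox1 and Srxn1 each lost the threshold when single libraries of either line were left out, with adjusted p up to 0.115 for Hmox1 and up to 0.0771 for Srxn1. Without LLC1 sgPrrx1 replicate 3, 7, 5 and 3 members differed in the 3 comparisons, beside 52.5%, 28.0% and 44.5% of 14644 genes, Gclm by -0.67 and G6pdx by -0.65 for WT against alone, and Srxn1 by 0.55 for sgPrrx1 against WT. For Gclc, which was lower with WT fibroblasts in 168FARN and, without that library, in LLC1, the difference between lines was -0.15 with all libraries (SE 0.216, adjusted p = 0.682) and -0.19 without it (adjusted p = 0.00914).

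**Figure D4:**
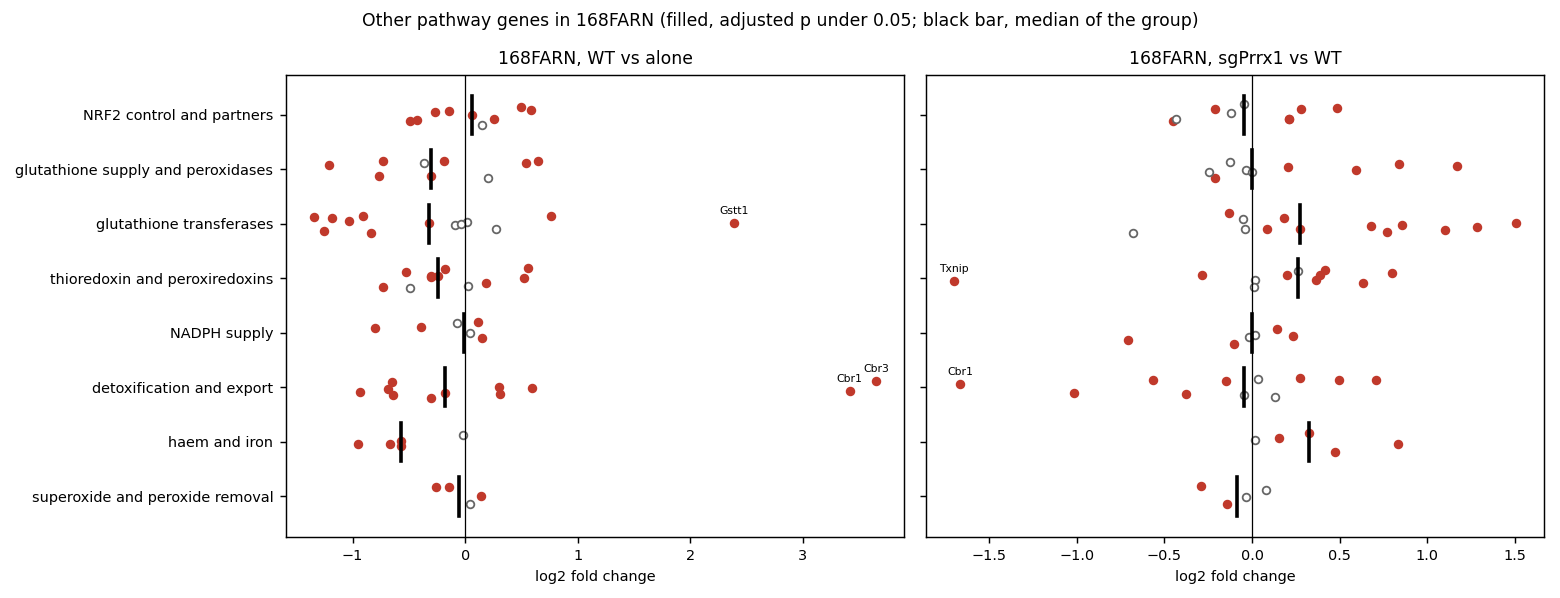
Log2 fold changes in 168FARN of the other genes of the pathway, by role, for WT against alone and sgPrrx1 against WT. Each point is a gene, filled where the adjusted p was under 0.05, and black bars are medians of a group of genes. Gpx7, at 0 in cells alone, is not drawn. Of the 5 haem and iron genes, 4 lie below 0 and filled for WT against alone, and 4 lie above 0 and filled for sgPrrx1 against WT.

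A wider list of 72 genes of the pathway, sorted into 8 roles, was described in the same way. In 168FARN, 69 of the 72 passed the filter on low counts. For WT CAFs against cells alone 20 were higher and 36 lower, beside 33.4% and 30.7% of all genes, with a median of -0.18 beside 0.01 over all genes, and for sgPrrx1 against alone 22 were higher and 25 lower, beside 25.7% and 24.1%, with a median of -0.03. For sgPrrx1 against WT 32 were higher and 16 lower, beside 26.9% and 33.1%, with a median of 0.08 beside -0.03. The counts by role that follow stand against these same shares. The members and this list were chosen with earlier results of these data known, so the shares are no independent test. The genes of the list that fell with WT had a median transcript length of 1442 bases and those that rose 1991, and those higher and lower with sgPrrx1 than with WT had 1174.5 and 2687. Length thus moved with the calls of this list, and its part in them was not tested.

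Among genes that control NRF2 or pair with it, 4 of 9 were higher and 4 lower with WT CAFs. Maff, a small MAF partner, rose by 0.59 (SE 0.0483), and Rbx1, the RING subunit of the ligase that KEAP1 recruits, fell by 0.49 (SE 0.0287) and was 0.49 higher with sgPrrx1 than with WT. Bach1, the repressor of Hmox1, fell by 0.42 with WT. Nfe2l1, a relative of Nfe2l2, was lower with sgPrrx1 by -0.45 against WT (SE 0.0221).

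In glutathione supply and the peroxidases, 3 of 10 were higher and 5 lower with WT CAFs. Slc7a11, which imports the cystine that glutathione is made from, had 46.33 ± 0.699 CPM in cells alone, 20.0 ± 0.595 with WT and 45.02 ± 1.98 with sgPrrx1 CAFs (SD, n = 3). It fell by 1.21 with WT (SE 0.0385, adjusted p = 7.5e-10) and was 1.17 higher with sgPrrx1 than with WT (SE 0.0385, adjusted p = 2.41e-09), and its difference between sgPrrx1 and cells alone was -0.04 (adjusted p = 0.39). Glrx, which reduces proteins joined to glutathione, rose by 0.65 with WT. Gpx7 was at 0 in every library of cells alone and at 0.971 ± 0.287 CPM with WT, and no fold is given for it.

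Of 13 glutathione transferase genes, 2 were higher and 7 lower with WT CAFs, and 9 were higher and 1 lower with sgPrrx1 than with WT. Mgst3, a microsomal member, fell by 1.34 with WT (SE 0.036, adjusted p = 1.99e-10) and Gsto1 rose by 0.76 (SE 0.0264). Gsta2, whose reads can be shared with its close paralogs and whose split is therefore uncertain, was 1.51 higher with sgPrrx1 than with WT (SE 0.0952). Gstm1, also one of a cluster of near copies, fell by 1.16 with sgPrrx1 against cells alone. It had 95.61 ± 0.948 CPM in cells alone, 46.67 ± 2.9 with WT and 42.65 ± 1.42 with sgPrrx1 CAFs (SD, n = 3), so both cocultures were low.

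Of 11 thioredoxin and peroxiredoxin genes, 3 were higher and 6 lower with WT CAFs, and 6 were higher and 2 lower with sgPrrx1 than with WT. Prdx1, a peroxiredoxin with many processed copies in the genome, fell by 0.73 with WT (SE 0.0302) and was 0.80 higher with sgPrrx1 than with WT. Txnip, which binds and blocks thioredoxin, moved the other way, with 180.7 ± 2.9 CPM in cells alone, 260.1 ± 6.6 with WT and 80.14 ± 1.88 with sgPrrx1 CAFs (SD, n = 3). It was lower by -1.70 with sgPrrx1 than with WT (SE 0.0317, adjusted p = 6.54e-11). Txnrd3 rose by 0.56 with WT.

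Of 6 genes that supply NADPH, 2 were higher and 2 lower with WT CAFs. Idh1, which makes NADPH from isocitrate, fell by 0.80 with WT (SE 0.0316) and by 0.90 with sgPrrx1 (SE 0.0317). Pgd, which acts after G6pdx in the same pathway, was 0.24 higher with sgPrrx1 than with WT, and Tkt, of the later part of that pathway, was lower by -0.71 (SE 0.0377). In detoxification and export, 5 of 11 genes were higher and 6 lower with WT CAFs. The epoxide hydrolase gene Ephx1 fell by 0.93 (SE 0.0331) and was lower by -1.08 with sgPrrx1 against cells alone (SE 0.0332). Ugdh, which makes the donor for glucuronidation, rose by 0.59 with WT (SE 0.0255). The carbonyl reductase genes Cbr1 and Cbr3, whose group means reached only 1.67 and 0.808 CPM, made up the largest rises of the list among genes that were above 0 in cells alone.

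Of 5 haem and iron genes tested, 4 were lower with WT CAFs and 4 were higher with sgPrrx1 than with WT, where 30.7% and 26.9% of all genes were. These were the biliverdin reductase genes Blvra and Blvrb, which act on the product of HMOX1, and the ferritin genes Fth1 and Ftl1, whose reads can be shared with processed copies. Blvrb fell by 0.95 with WT (SE 0.0354) and was 0.83 higher with sgPrrx1 than with WT (SE 0.0353). Hmox1 itself moved in the opposite direction in both comparisons. Among 4 genes that remove superoxide and peroxide, Sod2 fell by 0.26 with WT and by 0.55 with sgPrrx1, and Sod1 rose by 0.14 with WT.

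In LLC1, 64 of the 72 genes were tested, and 2 were higher and 0 lower with WT fibroblasts, beside 4.25% and 4.58% of all genes. These were Nqo2, a relative of Nqo1, which rose by 0.61 (SE 0.0778, adjusted p = 0.00482), and Sod3, the secreted superoxide dismutase, which was higher by 0.92 (adjusted p = 0.0389). The same 2 were higher with sgPrrx1 fibroblasts, and none was called between sgPrrx1 and WT. These calls too were lost without some of the libraries. With WT, 1 gene of the list was left without any 1 of the libraries of cells alone or without WT replicate 1 or 3. With sgPrrx1, 0 were left without any 1 of the libraries of cells alone or WT or without sgPrrx1 replicate 1, and 1 without sgPrrx1 replicate 2. Without sgPrrx1 replicate 3, 21 of 65 were higher and 11 lower with WT, beside 22.0% and 22.2% of all genes. With sgPrrx1, 6 were higher and 9 lower, beside 12.5% and 14.2%. Between sgPrrx1 and WT, 0 were higher and 2 lower, beside 2.94% and 2.75%. With all libraries the list medians for WT against alone, sgPrrx1 against alone and sgPrrx1 against WT were 0.0821, 0.1761 and 0.1151. Medians over all genes were -0.016, -0.0062 and 0.0195. Without sgPrrx1 replicate 3 the list medians were 0.0928, -0.0596 and -0.1171, so those of both sgPrrx1 comparisons changed sign. Beside them, all genes had -0.0019, -0.0044 and -0.006. Gss, the second enzyme of glutathione synthesis, was then higher by 0.55 with WT (SE 0.106), Gstm1 lower by -0.82 (SE 0.0699) and Osgin1 lower by -0.66 (SE 0.0629). Slc7a11 was not called in LLC1 in either fit, at 122.1 ± 24.8 CPM in cells alone and 101.1 ± 9.28 with WT (SD, n = 3).

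The 3 genes whose log2 CPM followed Nqo1 most closely over the 18 libraries, after centring within each line, were Tpm3 (Pearson r = 0.788), Tbc1d2 (0.786) and Ccl8 (0.766), out of 10181 genes compared. The libraries share groups and lines, and the 168FARN values rest on few counts.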

How the data were processed

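Cancer cell RNA was measured in 18 libraries (TruSeq v2 libraries, paired reads). The authors deposited whole-number counts per gene symbol, 1 table per line. The submitters' processing notes list Trimmomatic, STAR and HTSeq with the mouse build mm10. The study's methods give versions, and a later ComBat-seq batch correction, in a passage on fibroblast libraries, and whether these apply to the deposited counts is not stated. Strand setting and the handling of read pairs are not given in the sources used here, so reads of overlapping or antisense genes cannot be told apart. Groups came from the labels, and 0 columns lacked a sample.

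Counts were filtered with filterByExpr and scaled by TMM in edgeR 4.0.16 (R 4.3.3), and each line was fitted with a mean per group. The two-sided quasi-likelihood test of edgeR gave a p for every contrast, which was adjusted by Benjamini-Hochberg over all genes tested and called at 0.05. CPM used TMM-scaled totals. Interactions and the comparison of cells alone came from a joint fit of the genes shared by both tables. Levels per kb used the longest coding transcript of GENCODE vM1, and gene positions and promoters came from RefSeq GRCm38.p6. Replicate pairs differed by more than counting noise (chi-square per degree of freedom at least 11.1). The scripts were tested on simulated counts.

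The text names all 10 members, and from each other list at most the largest rise and largest fall that were called and averaged 100 counts or more, plus the 3 genes most like Nqo1. Bach1, Blvra, Fth1, Ftl1, Cbr1, Cbr3 and Gpx7, the LLC1 values of Slc7a11, and its sgPrrx1 against alone value were named after their values were seen. The members and lists were chosen with earlier results of these data known. Alternatives were DESeq2 1.42.0, RLE scaling, library totals, other count filters, the replicate number as a block, limma voom (3.58.1) with quality weights, each library left out, the compared groups alone, and a size threshold of 0.5.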

Additional observations from a re-analysis of the deposited data

Results flagged for a closer look

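In the test of the difference between lines, 6 values passed the threshold, each as the log2 change in 168FARN minus that in LLC1. For WT coculture against cells alone, Gclm differed by -0.64 and G6pdx by -0.61. Gclm was lower in 168FARN coculture by -0.52 and stood at 0.12 in LLC1, and G6pdx was at -0.54 and 0.07. For sgPrrx1 coculture against cells alone, Hmox1 differed by -0.37, Gclm by -0.48 and G6pdx by -0.74. The value for G6pdx includes the LLC1 library of sgPrrx1 replicate 3, and without it the difference was -0.57 (adjusted p = 5.27e-07 in edgeR). For sgPrrx1 against WT coculture, Srxn1 differed by 0.39. The differences of Hmox1 and Srxn1 lost the threshold when single libraries were left out, with adjusted p in edgeR up to 0.115 and 0.0771. The lines differed in their fibroblasts and count tables as well, which cannot be told apart from the cancer cells. Groups of 3 libraries were too small for a test of single outlying values.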

How the results depend on the processing

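In 168FARN no called change of a member changed sign under the alternatives run, and the uncalled values of Nqo1 for sgPrrx1 against WT (-0.2301 to 0.1117) and Txnrd1 for sgPrrx1 against alone (-0.0125 to 0.0249) crossed 0, each change of sign being a move of less than the standard error of edgeR with all libraries. Over 170 alternative values per comparison, 166 of WT against alone, 169 of sgPrrx1 against alone and 165 of sgPrrx1 against WT kept their side of the threshold without a change of sign larger than that standard error. In LLC1 these were 153, 147 and 162 of 170. An added size threshold of 0.5 left 3, 0 and 0 members called in 168FARN for WT against alone, sgPrrx1 against alone and sgPrrx1 against WT, beside 21.4%, 13.4% and 16% of all genes, and 31, 16 and 19 of the 72 other pathway genes. It left 1 such gene for sgPrrx1 against alone in LLC1, 1 and 0 members differing between lines for sgPrrx1 against alone and against WT (9.1% and 13.5% of all genes), and 5 members differing between the lines alone (59.5%), by construction.

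LLC1 counts depended most on the setting, and those over all genes moved too. For members called in WT against alone and sgPrrx1 against alone, DESeq2 gave 2 and 2 (17.7% and 15.1% of all genes), and library totals gave 2 in the first (10.4%). No filter beyond 1 count gave 0 in the second (2.32%). Limma voom with quality weights gave 7 and 8, with 2 for sgPrrx1 against WT (58.6%, 48.0% and 36.4% of all genes), and a fit of only the groups compared gave 3 and 0 (40.7% and 0.215%). For the other pathway genes, DESeq2 gave 5 in WT against alone and 1 in sgPrrx1 against WT, library totals 4 in WT against alone and 1 in sgPrrx1 against alone, and no filter 1 in the latter. Voom gave 45, 33 and 29 in the 3 comparisons, and only the groups compared gave 27 and 0 in the first 2. Members differing between lines were 2 for sgPrrx1 against WT with DESeq2 (24.9% of all genes), 6, 6 and 4 with voom (60.7%, 41.2% and 54.9%), and 6 for WT against alone and 0 for sgPrrx1 against WT with only the groups compared (51.2% and 12.4%). Apart from the quality weights, which give sgPrrx1 replicate 3 little weight, and the smaller sets of libraries, the cause was not tested.

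Leaving out each library in turn gave 0 to 4 members called in LLC1 for WT against alone, 0 to 3 for sgPrrx1 against alone, and 1 to 32, 0 to 15 and 0 to 2 other pathway genes in the 3 comparisons, while 2.09% to 44.2%, 0.398% to 26.7% and 0.0229% to 5.69% of all genes were called. Members differing between lines ranged from 2 to 7, 2 to 5 and 0 to 3, beside 24.4% to 52.5%, 8.75% to 28.0% and 14.8% to 44.5% of all genes. The highest counts came without LLC1 sgPrrx1 replicate 3. An arm left with fewer libraries shares the spread of the other groups.

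Changes of sign that moved a value by more than its standard error in edgeR with all libraries, or gave a call, came only in LLC1 and between lines, for values not called there. Several of the new values lay within their own standard error of 0, and under voom that of Gsr for sgPrrx1 against alone was called (adjusted p = 0.0195). Under voom, sgPrrx1 against alone in LLC1 became -0.0353 for Keap1 and 0.1196 for Gsr, and sgPrrx1 against WT 0.1335 for Gclc, -0.0818 for Srxn1 and 0.0239 for Gsr. Between lines it gave -0.1057 for Gclc and -0.0866 for Gsr in sgPrrx1 against alone, and 0.0849 for Keap1, 0.0324 for Hmox1, -0.0183 for Txnrd1 and 0.053 for G6pdx in sgPrrx1 against WT. With each library left out, sgPrrx1 against alone in LLC1 ranged from -0.0295 to 0.2152 for Keap1 and -0.1664 to 0.1136 for Gsr, and sgPrrx1 against WT from -0.2441 to 0.1026 for Gclc, -0.0777 to 0.1444 for Srxn1 and -0.2441 to 0.0245 for Gsr. Between lines the ranges were -0.1227 to 0.2496 for Gclc and -0.0745 to 0.2269 for Gsr in sgPrrx1 against alone. In sgPrrx1 against WT they were -0.1371 to 0.118 for Keap1, -0.1733 to 0.17 for Nqo1, -0.1566 to 0.0261 for Hmox1 and -0.219 to 0.0765 for G6pdx. The reversed sign came without LLC1 sgPrrx1 replicate 3, except for Nqo1, where it came without 168FARN sgPrrx1 replicate 2.

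The rule that every same-numbered pair correlate above 0.1 was met in neither line, so the number was not taken to pair libraries. Deviations of same-numbered libraries correlated at -0.0734 to 0.0627 in 168FARN (0 of 9 pairs over 0.1) and -0.0414 to 0.419 in LLC1 (6 of 9). With the replicate number as a block, 7, 5 and 8 members were called in 168FARN, beside 63.2%, 49.1% and 59.4% of all genes. In LLC1 1, 1 and 0 were called, beside 7.99%, 2.96% and 0.0155%. The other pathway genes called in LLC1 for sgPrrx1 against alone were 1. Labels do not say what a number marks.

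Nqo1 in 168FARN rested on 99 to 201 counts per library, and counting error and the spread between libraries were not separated for it.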

Other observations

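The ratio of Gclm to Gclc per kb, computed after the values of both genes had been seen, was 1.40, 1.45 and 1.48 in 168FARN cells alone, 1.52, 1.54 and 1.59 with WT CAFs and 1.49, 1.52 and 1.61 with sgPrrx1 CAFs. In LLC1 the ratio was 0.591, 0.581 and 0.633 in cells alone, 0.924, 0.855 and 0.931 with WT fibroblasts, and 0.876, 0.794 and 1.46 with sgPrrx1 fibroblasts, where the last value is that of replicate 3. In both lines all cocultures exceeded all libraries of cells alone, and no test was made of this ratio.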
